A study of Mus musculus with 4 samples.

Results

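Untreated OHC-TRECK cochleae, from the mice also called Prestin-hDTR, were compared with untreated wild-type cochleae, a comparison that asks what differed before any toxin was given. The comparison uses 2 of the 4 arrays of the series, those titled WT DT(-) and OHC-TRECK DT(-), with 1 array a group. Both pools came from B6J mice aged 5 weeks that had received no treatment, and the labels give pooled males and females, with an n of 8, 4 females and 4 males, which the sources leave unclear as a number of cochleae or of mice. OHC-TRECK mice carry a human diphtheria toxin receptor, a modified form of the growth factor precursor HB-EGF, under the promoter of prestin (Slc26a5), which is active in outer hair cells. They descend from 1 founder line with an insertion on chromosome 14, so any effect of the line, of carrying the transgene, of the pool of animals and of the single array cannot be told apart. The remaining arrays, WT DT(+) and OHC-TRECK DT(+), came from mice of the same genotypes and age, 7 days after 50 μg/kg of diphtheria toxin (DT), which removes outer hair cells from the OHC-TRECK mice. This toxin-treated pair differs by the same genotype and shares no array with the untreated pair, and it is quoted beside the results for that reason.

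A probe was kept when the scanner software marked it well above background on both untreated arrays, which held for 25915 of 39429 probes. They stand for 16390 named genes when 1 probe is taken per gene, the brightest one. A further 1907 probes were well above background on the OHC-TRECK array only, 505 on the wild-type array only and 11101 on neither. The log2 signal is the log2 of a probe's intensity over the 75th percentile of its array, so that 0 is the level of a rather bright probe, and the log2 ratio is the OHC-TRECK signal minus the wild-type signal. No difference here has a replicate check and no p-value is given. The ± value after a log2 ratio is the error of the spot intensities that the software itself reports, and it covers neither animals nor arrays. Among probes spotted more than once, the median SD between their spots was 0.0713 in wild-type and 0.0634 in OHC-TRECK on the log2 scale.

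The cochlea lies in the temporal bone, which holds marrow, and its RNA therefore carries transcripts of blood-forming cells beside those of the hearing organ. Neutrophils make their granule proteins in sequence while still in the marrow, first the primary granules with myeloperoxidase and serine proteases, then the secondary and tertiary granules with lactoferrin and cathelicidin, so these messages mark immature cells. Megakaryocytes shed platelets and load them with chemokines and with the glycoproteins that bind von Willebrand factor and collagen. Motile cilia, which beat by means of axonemal dyneins, are built by ciliated epithelia such as that of the middle ear, under factors of the RFX family and FOXJ1. Interferon-stimulated genes are switched on together by interferon signalling through a response element in their promoters.

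The groups of genes that set the arrays apart belong to these programs, and the promoters of 8 of their members are shown first. Each is the stretch of 250 bases before the start of transcription, from RefSeq on GRCm38, written 5′ to 3′ on the strand of the gene. Ppbp and Pf4 are shown because they encode platelet chemokines from neighbouring genes and differed in size of change, with Gp9 and Gp6 as members that hold a GATA site. Capitals in these mark the letters GATAA, read on both strands, which are part of the site bound by GATA factors of megakaryocytes. The stretches are chr5:90768268-90768517 (+ strand) for Ppbp, chr5:90772185-90772434 (+ strand) for Pf4, chr6:87777820-87778069 (+ strand) for Gp9 and chr7:4397745-4397994 (- strand) for Gp6.
Ppbp: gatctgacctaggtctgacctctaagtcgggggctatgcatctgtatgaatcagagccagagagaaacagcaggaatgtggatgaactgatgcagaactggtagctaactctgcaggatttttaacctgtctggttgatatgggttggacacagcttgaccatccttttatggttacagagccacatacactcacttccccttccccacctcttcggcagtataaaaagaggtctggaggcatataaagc
Pf4: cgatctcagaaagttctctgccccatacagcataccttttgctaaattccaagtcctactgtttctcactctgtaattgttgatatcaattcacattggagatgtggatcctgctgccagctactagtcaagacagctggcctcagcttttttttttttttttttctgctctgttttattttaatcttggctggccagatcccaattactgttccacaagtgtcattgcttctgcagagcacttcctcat
Gp9: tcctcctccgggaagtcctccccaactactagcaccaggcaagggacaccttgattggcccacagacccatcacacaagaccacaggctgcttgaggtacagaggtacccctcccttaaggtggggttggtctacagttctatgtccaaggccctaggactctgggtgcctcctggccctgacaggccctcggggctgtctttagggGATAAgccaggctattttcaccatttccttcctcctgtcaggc
Gp6: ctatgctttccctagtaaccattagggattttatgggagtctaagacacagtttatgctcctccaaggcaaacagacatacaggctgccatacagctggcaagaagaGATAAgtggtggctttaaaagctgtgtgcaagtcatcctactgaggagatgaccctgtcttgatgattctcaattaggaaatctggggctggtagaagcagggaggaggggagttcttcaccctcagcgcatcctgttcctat

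Ifit3 and Isg15 are antiviral genes that were lower on the OHC-TRECK array, and capitals mark GAAANNGAAA, the core of the interferon-stimulated response element, on either strand and with overlaps allowed. They lie at chr19:34583279-34583528 (+ strand) and chr4:156200819-156201068 (- strand).
Ifit3: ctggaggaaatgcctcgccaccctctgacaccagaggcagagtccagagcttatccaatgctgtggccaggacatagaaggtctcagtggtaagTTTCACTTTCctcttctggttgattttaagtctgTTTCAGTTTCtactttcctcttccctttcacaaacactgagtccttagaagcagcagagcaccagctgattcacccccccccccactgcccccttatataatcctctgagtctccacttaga
Isg15: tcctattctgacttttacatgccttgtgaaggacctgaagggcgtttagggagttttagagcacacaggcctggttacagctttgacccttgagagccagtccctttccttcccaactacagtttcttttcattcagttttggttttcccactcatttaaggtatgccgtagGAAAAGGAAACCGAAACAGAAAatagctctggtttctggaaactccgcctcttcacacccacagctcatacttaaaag

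Fam183b, a gene of motile cilia, and Dynlrb2, which encodes a dynein light chain, were higher on the OHC-TRECK array. Capitals mark GTTGCC on either strand, a part of the X-box to which RFX factors bind. They lie at chr11:58801961-58802210 (- strand) and chr8:116504765-116505014 (+ strand).
Fam183b: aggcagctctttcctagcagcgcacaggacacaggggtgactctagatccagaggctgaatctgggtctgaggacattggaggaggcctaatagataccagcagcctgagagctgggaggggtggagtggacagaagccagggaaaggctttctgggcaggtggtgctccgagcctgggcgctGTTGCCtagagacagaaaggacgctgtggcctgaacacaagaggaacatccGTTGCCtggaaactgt
Dynlrb2: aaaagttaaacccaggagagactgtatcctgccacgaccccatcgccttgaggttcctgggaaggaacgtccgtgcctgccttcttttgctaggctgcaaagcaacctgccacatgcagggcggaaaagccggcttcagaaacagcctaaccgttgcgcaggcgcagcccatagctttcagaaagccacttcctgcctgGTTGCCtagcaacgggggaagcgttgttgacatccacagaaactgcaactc

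GATAA occurred in 6221 of 27025 mouse promoters of this length (23%) and in 10 of the 21 platelet genes with a promoter in the table (47.6%). The response element occurred in 821 of all promoters (3.04%) and in 21 of 46 interferon-response genes (45.7%). GTTGCC occurred in 2833 of all promoters (10.5%) and in 28 of 76 genes of the ciliary axoneme (36.8%). These are matches of letters in a window and not measured sites, and the Ppbp and Pf4 windows held no GATAA.

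Between the untreated arrays, 105 probes were at least 2-fold higher (0.405% of those measured) and 279 at least 2-fold lower (1.08%) in OHC-TRECK cochleae. The median log2 ratio of all probes was -0.01 with an SD of 0.28. Counted as genes, 63 of 16390 were higher (0.384%) and 164 lower (1%). Most of the called probes were dim, with a median log2 signal over both arrays of -4.51 for the lower and -4.19 for the higher ones, and the few bright ones included S100a8, S100a9, Camp, Chil3 and Acp5 among the lower and Mdfi and Rbp4 among the higher.

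**Figure D1:**
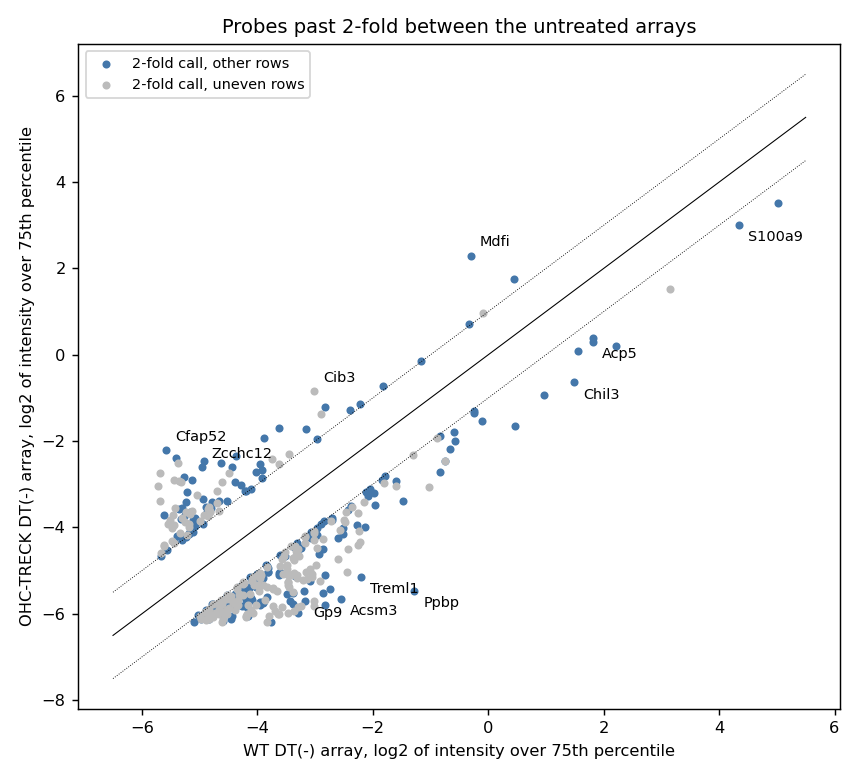
Log2 signal on the WT DT(-) array (horizontal) and on the OHC-TRECK DT(-) array (vertical) of the called probes past 2-fold, 1 point a probe; the solid line is equality and the dotted lines 2-fold, and grey points lie in 5 bands of array rows where dim probes scattered most. The 279 lower probes lie below the lines and the 105 higher probes above, most of them at log2 signals under -3.

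The position of a probe on the array moved with these calls. When the rows of the array were cut into 28 bands of 19 rows, the SD of the log2 ratio of dim probes (mean log2 signal under -3) was 0.553 to 0.664 in 5 bands and 0.222 to 0.473 in the other 23. The 5 bands, chosen for this after the values were seen, held 4892 of the probes and 2.92% of those were called lower and 0.94% higher, against 0.652% and 0.285% in the rest. Without them 59 probes were higher and 136 lower. Of the 279 lower probes, 119 were at least 2-fold above all 3 other arrays on the wild-type array alone, and of the 105 higher probes 50 were so on the OHC-TRECK array alone. The part of array position in these single-array values was not tested, and called genes inside the 5 bands are named as such in what follows.

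**Figure D2:**
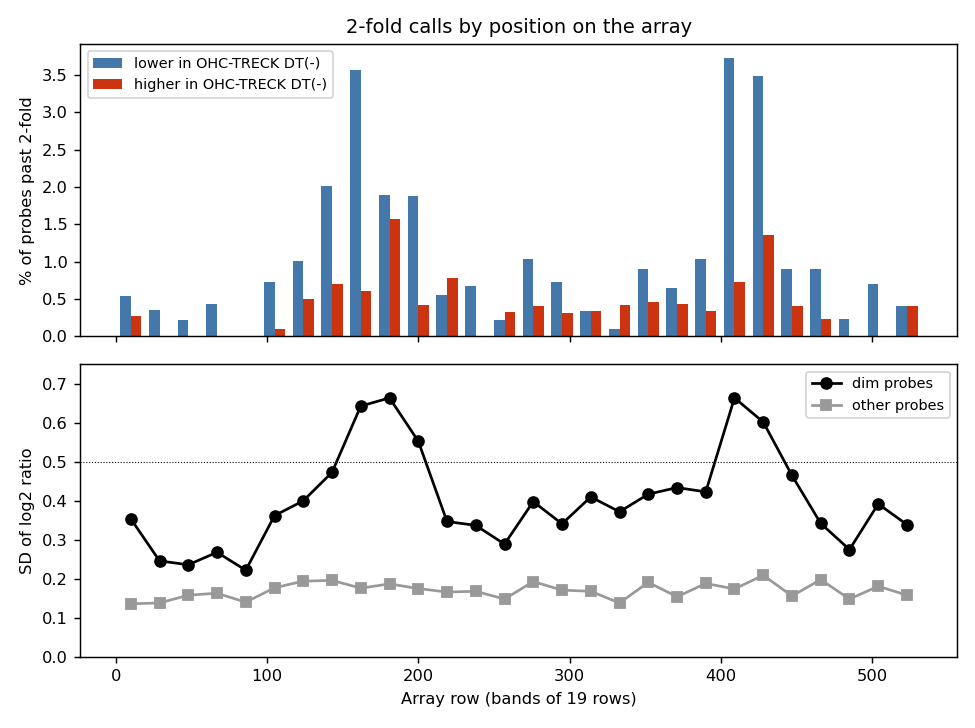
Upper panel, percent of measured probes past 2-fold in each band of 19 array rows, lower (blue) and higher (red) in OHC-TRECK DT(-); lower panel, SD of the log2 ratio in the same bands for dim probes (black) and for other probes (grey), with the dotted line at 0.5. The 5 bands above the line lie in separate regions of rows, and 3 of them have the highest shares of lower probes, while other probes show no such peaks.

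Other probes of the same gene often gave another answer. Outside the 5 bands, 24 genes called lower had 2 or more measured probes, and in 3 of them every probe was past 2-fold, while in 17 another probe was lower by less than 0.5 or was higher on the log2 scale. Inside the bands, this was so in 45 of 45 genes called lower and 14 of 15 called higher. Of the 17 genes called higher outside the bands with 2 or more probes, every probe passed in 2, Skor1 and Ptprq. The 3 lower ones were Mpo, Camp and Acp5.

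Among 39 gene lists with 1000 genes, of which 794 were measured, 4 had a median log2 ratio below -0.4 and all of these were lists of marrow-derived cells. The lists for supporting cells, the stria vascularis, fibrocytes, endothelium, heat shock, the circadian clock and sex-linked genes had medians between 0.007 and 0.071. The motile cilia list lay furthest above 0, at 0.339.

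**Figure D3:**
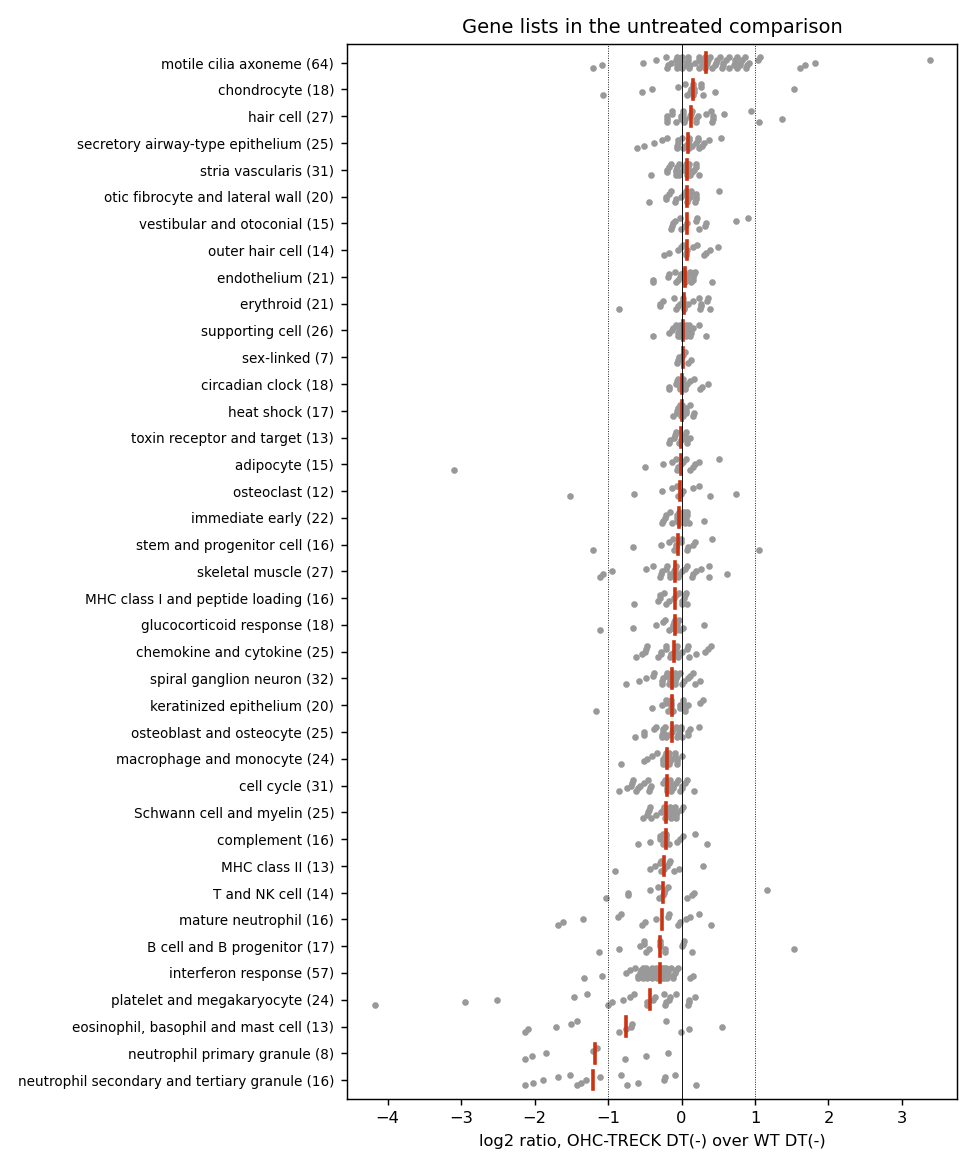
Log2 ratio of OHC-TRECK DT(-) over WT DT(-) for each measured gene (grey points, 1 probe a gene) in 39 gene lists, ordered by the median of the list (red bar), with the number of measured genes in brackets and dotted lines at 2-fold. The neutrophil granule lists lie lowest, with medians of -1.20 and -1.18, and motile cilia highest, at 0.34. The lists for supporting cells, the stria vascularis and fibrocytes centre near 0, and those for Schwann cells and the spiral ganglion at -0.21 and -0.13.

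Platelet genes held the largest single difference measured on both arrays, that of Ppbp. Of 30 genes of platelets and megakaryocytes, 24 were measured, 20 of them lower and 4 higher, and 6 were past 2-fold, all lower (1% of all genes were lower by that much). Of the other 6 genes, 2 were well above background on the wild-type array only and 4 on neither. The median log2 ratio was -0.43, against -0.01 for all 16390 genes. Since the RNA is that of a whole tissue, fewer cells of a type and less RNA per cell cannot be told apart, here or in any list below.

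Ppbp encodes pro-platelet basic protein, a chemokine of platelet granules (probe at chr5:91198970-91199029, mm9). Its log2 signal was -1.28 in untreated wild-type and -5.46 in untreated OHC-TRECK cochleae, and 0.24 and -4.55 in the toxin-treated pair. Both wild-type arrays were far above both OHC-TRECK arrays, with a log2 ratio of -4.18 ± 0.29 untreated (18.1-fold lower) and -4.79 ± 0.29 after toxin (27.7-fold lower). Pf4 encodes platelet factor 4, and its gene lies beside Ppbp (probe at chr5:91202275-91202334, mm9). Its log2 signal was 1.27 and 0.57 untreated and 1.66 and 1.18 after toxin, a log2 ratio of -0.70 ± 0.20 (1.63-fold lower) and -0.47. The same order of the arrays thus held for both chemokines, at very different sizes. Each was measured by 1 probe.

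Treml1, a receptor stored in platelet granules (chr17:48506365-48506424, mm9), had a log2 signal of -2.20 in wild-type and -5.15 in OHC-TRECK cochleae untreated, 7.75-fold lower, and -1.17 and -4.99 after toxin, 14.1-fold lower. Gp9, a subunit of the von Willebrand factor receptor (chr6:87729650-87729709, mm9), was at -3.18 and -5.70, 5.72-fold lower, and after toxin at -2.12 in wild-type and not well above background in OHC-TRECK cochleae. These genes, like Ppbp, separated both wild-type from both OHC-TRECK arrays. Gp6, the collagen receptor of platelets, was at -4.33 and -5.79 untreated, 2.76-fold lower, with its probe inside an uneven band of rows. Rgs18, a regulator of G protein signalling, had a log2 ratio of -1.29 and Nfe2, a transcription factor of the megakaryocyte, one of -1.01. With normexp in place of the software's background subtraction the log2 ratios were -3.24 for Ppbp, -2.30 for Treml1, -1.60 for Gp9 and -0.81 for Gp6, which was then under 2-fold.

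Other platelet genes varied in the size of the difference. Gp1bb, which joins Gp9 in the same receptor, had a log2 ratio of -0.39, while Gp1ba, the chain that binds the ligand, was well above background on the wild-type array only and at least 2.71-fold lower. Clec1b, the podoplanin receptor, gave at least 5.40-fold and at least 4.59-fold lower by probes that were well above background on the wild-type array only, and a log2 ratio of -0.80 by the probe measured on both. Mmrn1, which encodes multimerin of platelets and endothelium, was at least 11.95-fold lower by a probe in an uneven band. Itga2b, the integrin chain that marks the megakaryocyte lineage, had a log2 ratio of -0.46 and its partner Itgb3 one of -0.64. Vwf, which endothelium also makes, had one of -0.18, and P2ry12, Gng11, Thbs1 and Fli1, which other cells also express, had ratios of 0.10, 0.09, 0.11 and 0.18. Of the 20 platelet genes measured on all 4 arrays, 10 had both wild-type arrays above both OHC-TRECK arrays and 0 the reverse, beside 13.2% and 17.0% of all 15283 genes. The median log2 ratio of these 20 genes was -0.30 untreated and -0.16 after toxin. In the toxin-treated pair 14 were lower, 4 of them past 2-fold (1.03% of all probes were), and 6 higher.

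Neutrophil granule genes were lower in OHC-TRECK cochleae as groups. For primary granules, 8 of 10 genes were measured, all 8 were lower, 5 of them past 2-fold, and the median log2 ratio was -1.18. For secondary and tertiary granules, 16 of 21 genes were measured, 15 were lower, 9 of them past 2-fold, and the median was -1.20. Of all genes, 53.6% were lower and 1% past 2-fold lower. In the toxin-treated pair, 5 of 8 and 9 of 15 members were past 2-fold lower (1.03% of all probes were), with medians of -1.19 and -1.34, and Lcn2 and Ltb4r1 were not among them. The untreated median of the same 15 later granule genes was -1.10. Mpo, the myeloperoxidase of primary granules, had log2 signals of 0.47 (wild-type) and -1.66 (OHC-TRECK) untreated and 1.02 and -0.49 after toxin, 4.39-fold lower untreated, and its other probe had a log2 ratio of -2.29. Camp, the cathelicidin, had 2.22 and 0.21 untreated and 2.82 and 0.82 after toxin, and its probes gave log2 ratios of -2.02 and -1.88. Both genes are thus lower on both OHC-TRECK arrays by every probe.

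Chil3, a chitinase-like lectin, was at 1.49 and -0.64 on the log2 scale, 4.39-fold lower. The primary granule list also counts Cebpe, the transcription factor of late granules. Log2 ratios of the other called members of that list were -2.04 for the protease Ctsg (uneven band), -1.85 for Cebpe, -1.21 for Ms4a3 and -1.16 for Prtn3, proteinase 3. Among later granule genes they were -1.88 for Ngp, -1.68 for Wfdc21, -1.52 for Hp, haptoglobin, -1.42 for Ltf, lactoferrin, -1.37 for Itgb2l, -1.30 for Ltb4r1 (uneven band) and -1.10 for Lcn2, lipocalin 2. Elane, neutrophil elastase, was lower by less than 2-fold, with -0.78. Fcnb, a ficolin, and Mmp9, gelatinase B, were well above background on the wild-type array only, at least 3.94-fold and at least 2.41-fold lower.

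Genes of mature neutrophils differed less as a group, with 16 of 22 measured, 12 lower and 3 past 2-fold, and a median log2 ratio of -0.27. S100a8 and S100a9 encode the subunits of calprotectin, the most abundant protein of the neutrophil cytosol. S100a9 had a log2 signal of 4.35 and 3.01 untreated and 4.94 and 3.70 after toxin, 2.53-fold lower in untreated OHC-TRECK cochleae, and S100a8 had a log2 ratio of -1.61 by a probe in an uneven band. Fpr2, a receptor for formylated peptides, had -1.69, also in an uneven band. Pglyrp1, which binds bacterial peptidoglycan, was at -0.83, and Ly6g, the surface marker of the lineage, at -0.18.

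Eosinophil genes moved with them. Of 22 genes of eosinophils, basophils and mast cells, 13 were measured, 11 were lower and 5 past 2-fold (1% of all genes were lower by that much). The median log2 ratio of the 13 was -0.76. Over the 8 measured on all 4 arrays it was -0.53 untreated and -1.16 after toxin. Prg2, the major basic protein, was at -0.75 and -2.45 untreated and 0.53 and -2.27 after toxin, 3.27-fold lower untreated, and Epx, eosinophil peroxidase, had a log2 ratio of -2.09, both by probes in uneven bands. Ear1 and Ear2, eosinophil-associated ribonucleases, were at -1.51 and -1.43, but the copies of this family are so alike that their probes may share targets. Mcpt4, a mast cell protease, was at -3.39 in untreated wild-type and -5.52 in untreated OHC-TRECK cochleae, and was not measured in the toxin-treated pair. By bounds, the basophil protease Mcpt8 was at least 2.39-fold lower and Il5ra, the receptor for interleukin 5, at least 5.66-fold higher in an uneven band.

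The remaining blood lineages did not follow in size in the untreated pair. In the erythroid list 0 of 21 genes were past 2-fold and the median log2 ratio was 0.04 untreated. After toxin the median was -0.32 and 7 of 20 were lower by 2-fold, beside 1.03% of all probes of that pair. B cell genes had a median of -0.29 with 12 of 17 lower untreated. After toxin their median was -0.755, with 14 of 16 lower, 8 of them by 2-fold. In 6 of these 16 B cell genes (37.5%) both wild-type arrays were above both OHC-TRECK arrays, beside 13.2% of all genes. T and NK cell genes had a median of -0.25 with 10 of 14 lower untreated, and of -0.005 with 6 of 11 lower after toxin. Spib, a factor of B and plasmacytoid cells, had a log2 ratio of -1.12 in an uneven band, and Pax5, the factor that commits B cells, one of 1.53, at log2 signals of -5.16 and -3.63, which no other array matched. Of 24 macrophage genes 23 were lower, 0 past 2-fold, with a median of -0.20, and after toxin 21 were higher with a median of 0.96. MHC class II genes had a median of -0.24. Cell cycle genes, which proliferating marrow cells express, had 26 of 31 lower and a median of -0.20, with the probes of Mki67 at -0.85, in an uneven band, and at -1.03.

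Over all 4 arrays, both wild-type arrays were above both OHC-TRECK arrays in 7 of 8 primary granule genes, 8 of 15 later granule genes, 8 of 16 mature neutrophil genes and 5 of 8 eosinophil genes, beside 13.2% of all genes. The reverse held for 0, 0, 3 and 1 of them.

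**Figure D4:**
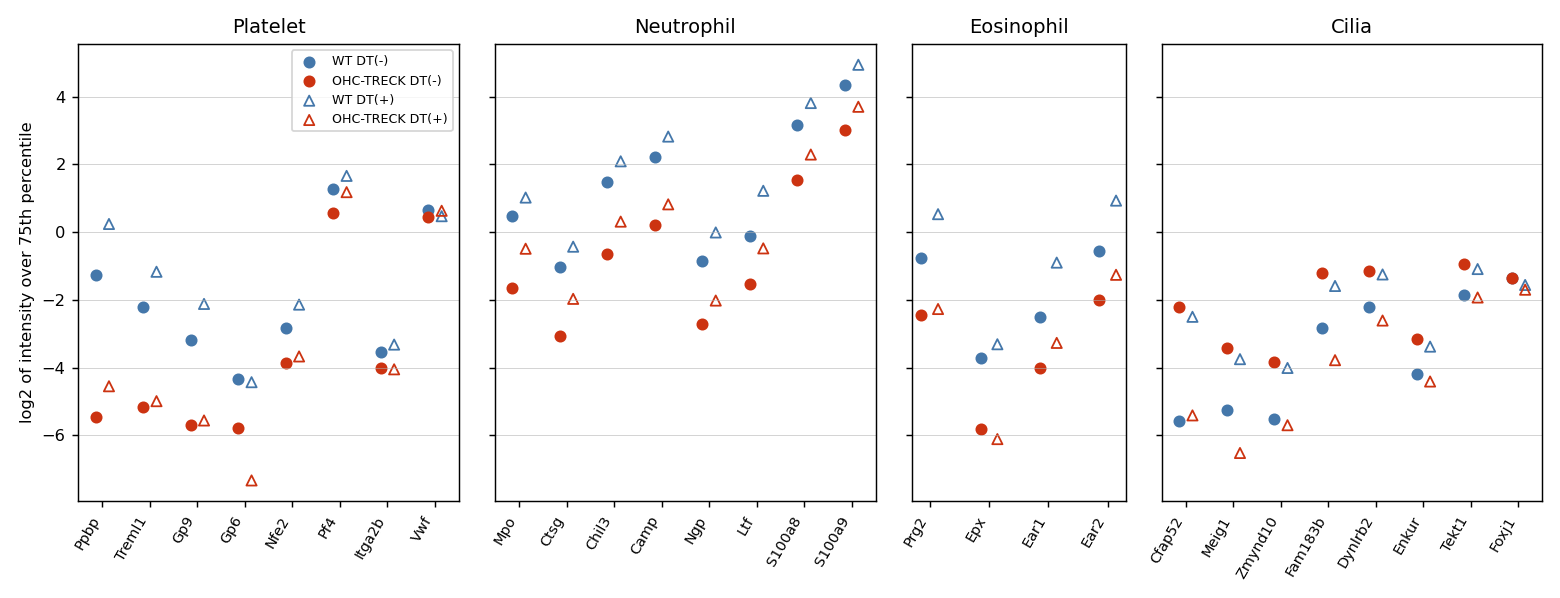
Log2 of intensity over the array's 75th percentile for selected genes of platelets, neutrophils, eosinophils and motile cilia on the 4 arrays, 1 symbol an array (filled circles untreated, open triangles after toxin, blue wild-type, red OHC-TRECK). Red symbols lie below blue ones in the neutrophil and eosinophil panels, while in the cilia genes other than Foxj1 untreated OHC-TRECK and toxin-treated wild-type lie above the other arrays; Gp9, Gp6, Epx, Meig1 and Zmynd10 are not well above background in toxin-treated OHC-TRECK.

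Of the 129 lower probes that passed the background filter on all 4 arrays, 44 were also at least 2-fold lower in OHC-TRECK after toxin (34.1%), where 1.03% of all measured probes were lower by that much, and 4 were at least 2-fold higher, all 4 in uneven bands. The 44 probes carry 40 names, and 22 of the names are in a gene list, among them 5 primary granule, 6 later granule, 3 mature neutrophil, 3 platelet and 3 eosinophil genes. Of the 55 higher probes measured on all 4 arrays, 2 were again higher (3.64%), beside 0.657% of all probes of that pair, and 17 were at least 2-fold lower (30.9%). The shared calls were therefore mostly lower probes.

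Some shared differences lay outside the blood lists. Acp5, the tartrate-resistant acid phosphatase of osteoclasts (chr9:21931190-21931249, mm9), was at 1.82 and 0.30 untreated and 1.41 and 0.06 after toxin, 2.86-fold lower untreated, and its other probe had a log2 ratio of -1.46. Of the 12 osteoclast genes measured it was the 1 past 2-fold, and Ctsk, cathepsin K, had a log2 ratio of -0.14, while 3 further ones, Mmp9 among them, were well above background on the wild-type array only. Both wild-type arrays were above both OHC-TRECK arrays in 5 of 11 osteoclast genes (45.5%), beside 13.2% of all genes. In the osteoblast and osteocyte list 20 of 25 genes were lower untreated, 0 past 2-fold, with a median log2 ratio of -0.13. After toxin 20 of 24 were lower, 4 of them past 2-fold (1.03% of all probes were), with a median of -0.38. Both wild-type arrays were above both OHC-TRECK arrays in 16 of these 24 bone genes (66.7%), among them Col1a1, the main collagen chain of bone, with log2 ratios of -0.51 and -1.24. The part of these bone genes in the marrow differences was not tested. The brightest lower probe, whose transcript has no gene symbol in the tables used, was at 5.02 and 3.51 untreated and 4.63 and 3.29 after toxin. Dcaf12l2, a WD-repeat gene, was at 1.81 and 0.38 untreated and 1.28 and -0.10 after toxin by 1 probe, while its dimmer probe had a log2 ratio of 0.22. Pde5a, the cyclic GMP phosphodiesterase of smooth muscle and platelets, had ratios of -1.71 and -1.20 in the pairs. The 2 shared higher genes were Ripply3, a transcriptional corepressor, with log2 ratios of 2.44 untreated and 1.30 after toxin, and Sox6, a factor of cartilage, with 1.53 and 1.68, both at log2 signals under -2.9 and both in uneven bands. Sox6 was under 2-fold, at 0.92, with normexp.

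Interferon-response genes differed little one by one and alike in direction. Of 62 genes 57 were measured, 55 were lower in untreated OHC-TRECK cochleae, and the median log2 ratio was -0.30, while 53.6% of all genes were lower. Members past 2-fold by their brightest probe were Herc6, a ubiquitin ligase for ISG15, at -1.32 and Mx1, a dynamin-like antiviral protein, at -1.09. The Herc6 probe lay in an uneven band, and the gene's other probe had a log2 ratio of -0.12. With normexp both genes were under 2-fold, Herc6 at -0.98 and Mx1 at -0.84. The dimmer probe of Zbp1, a sensor of nucleic acids, was past 2-fold at -1.24, beside -0.53 by its brightest. Ifit3 was at 1.70 and 1.07 untreated and 1.20 and 1.45 after toxin, and Isg15, the ubiquitin-like modifier, at 2.11 and 1.59 and then 1.76 and 1.98. On both, untreated wild-type was highest and untreated OHC-TRECK lowest.

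Log2 ratios of other members were -0.76 for Mx2, -0.71 for Usp18, which removes ISG15, -0.59 for Oasl1, -0.57 for Rtp4, -0.52 for Ifit1 and for Rsad2, -0.49 for Oas1a, -0.40 for the transcription factor Irf7, -0.24 for Irf9 and -0.20 for Stat2. The exceptions were Tgtp1 at 0.15 and Gbp5 at 0.12. After toxin the list had the opposite direction, with 49 of 55 higher in OHC-TRECK and a median of 0.24. In 44 of the 55 genes (80.0%), untreated wild-type and toxin-treated OHC-TRECK were both above the other arrays, an order that 16.6% of all genes had. Complement genes had a median of -0.22 with 13 of 16 lower and MHC class I and peptide-loading genes one of -0.09 with 10 of 16 lower.

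Motile cilia genes were higher in untreated OHC-TRECK cochleae. Of 96 genes 64 were measured, 49 of them higher with a median log2 ratio of 0.34, and 6 were past 2-fold higher, where 0.384% of all genes were, and 2 past 2-fold lower. Of the 92 list genes on the array, a further 11 were well above background on the OHC-TRECK array only and 2 on the wild-type array only. Counted as probes rather than genes, 1907 and 505 of all 39429 were so. Cfap52, a protein of the ciliary axoneme that the array lists as Wdr16 (chr11:67738471-67738530, mm9), was at -5.58 in untreated wild-type and -2.20 in untreated OHC-TRECK cochleae, a log2 ratio of 3.38 ± 0.31 (10.4-fold higher), the largest of any higher gene measured on both. After toxin it was at -2.50 in wild-type and -5.41 in OHC-TRECK, the reverse order.

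The other members called higher had the same crossed order. Meig1, which was first described in meiosis, had log2 signals of -5.24 and -3.42 untreated, 3.52-fold higher, and -3.75 in wild-type after toxin, and was not well above background in toxin-treated OHC-TRECK. Zmynd10, which is needed to assemble dynein arms, was at -5.51 and -3.82 by a probe in an uneven band. Fam183b was at -2.82 and -1.20 untreated and -1.59 and -3.78 after toxin, and Dynlrb2 at -2.22 and -1.15 and then -1.25 and -2.61. Enkur, which tethers sperm and ciliary channels, had a log2 ratio of 1.03. Called lower were Myb, which ciliated cells share with blood progenitors, at -1.21 in an uneven band, and Lrrc6 at -1.08, and Myb was lower in OHC-TRECK after toxin too, with -1.47. With normexp in place of the software's background subtraction, the log2 ratio of Cfap52 was 2.46.

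By their brightest probes, log2 ratios under 2-fold were 0.92 for Tekt1, 0.80 for Tekt2, 0.88 for Dnah2, 0.76 for Dnah6, 0.86 for Cfap126 and 0.65 for Rsph1, genes that include tektins, axonemal dyneins and a radial spoke protein. The dimmer probes of Tekt1 and of Cfap46 were past 2-fold higher, at 1.11 and 1.28, beside 0.92 and 0.90 by their brightest. The regulators were near 0, with -0.00 for Foxj1 and -0.01 for Rfx3. Armc4, a docking factor of outer dynein arms, was well above background on the OHC-TRECK array only and at least 9.19-fold higher, and Ccdc40 at least 2.79-fold, while Dnah10 was at least 5.02-fold lower by a probe in an uneven band. In 28 of 49 cilia genes measured on all 4 arrays (57.1%), untreated OHC-TRECK and toxin-treated wild-type were above the other arrays, beside 12.6% of all genes, and after toxin the median was -0.38. Secretory genes of airway-type epithelium, which lines the middle ear beside ciliated cells, had a median of 0.09 with 16 of 25 higher and 0 past 2-fold.

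The crossed order also held for several of the higher genes outside the cilia list. Zcchc12, a transcriptional coactivator, was at -4.96 and -2.61 untreated and -2.87 and -5.13 after toxin, 5.09-fold higher untreated, with a log2 ratio of 2.35, or 1.70 with normexp. Skor1, a corepressor of neurons, had log2 ratios of 1.93 and 1.95 by its 2 probes untreated and -2.19 and -2.45 after toxin. Cib3, a calcium-binding protein of hair cells, was at -3.02 and -0.85 untreated and -0.99 and -3.93 after toxin, by a probe in an uneven band. Cyp2g1, an olfactory cytochrome, and Fam166c had log2 ratios of 2.44 and 2.47 untreated and -1.94 and -1.72 after toxin. In each of these genes the low arrays were untreated wild-type and toxin-treated OHC-TRECK. The toxin removes outer hair cells. For a hair cell gene such as Cib3 the low toxin-treated OHC-TRECK array may therefore be set by the design, which was not tested.

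**Figure D5:**
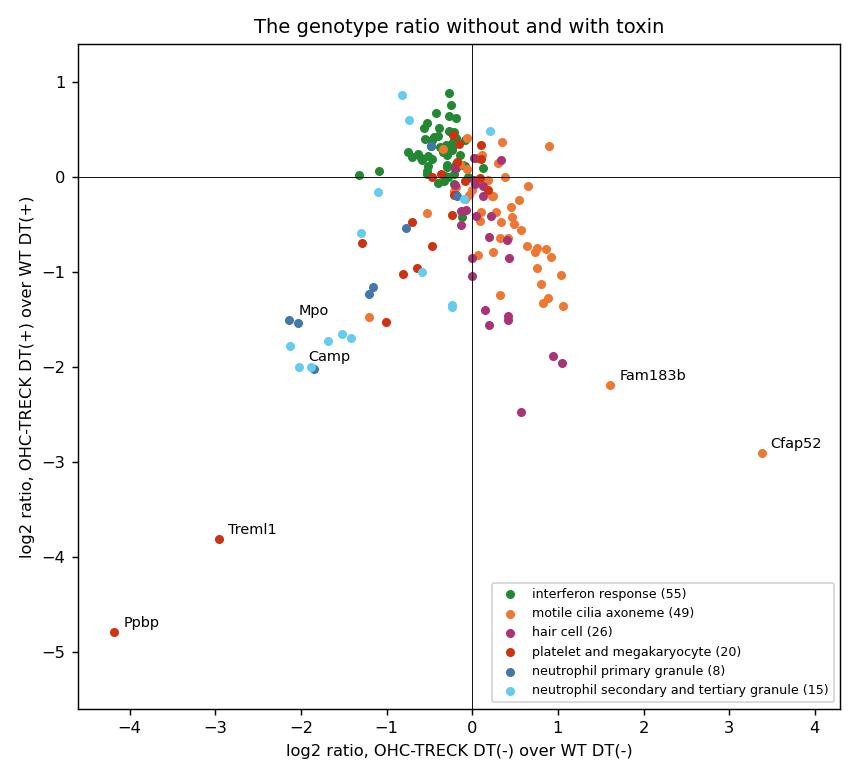
Log2 ratio of OHC-TRECK over wild-type in the untreated pair (horizontal) and in the toxin-treated pair (vertical), which share no array, for genes of 6 lists measured on all 4 arrays, 1 point a gene with the number of genes in brackets. Ppbp, Treml1 and the granule genes lie at the lower left, lower in both pairs, while cilia and hair cell genes lie mostly at the lower right and interferon genes mostly at the upper left.

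Genes of hair cells were measured to check the tissue and the model. Ocm, the calcium buffer oncomodulin of outer hair cells, was at 4.36 in wild-type and 4.35 in OHC-TRECK cochleae untreated, and after toxin at 4.21 and 1.97. Slc26a5, whose promoter drives the transgene, was dim at -4.89 and -5.06, a log2 ratio of -0.17 ± 0.30. Strc, Chrna10 and Chrna9 had log2 ratios of 0.21, 0.38 and 0.50, and Otof and Slc17a8 of inner hair cells 0.20 and -0.13. The dimmer probes of Chrna9, in an uneven band, and of Slc17a8 had the opposite sign, with -0.24 and 0.25. Sox2, a factor of supporting cells, had 0.16. Over 14 outer hair cell genes the median was 0.07, with 0 past 2-fold. Mouse Hbegf, the counterpart of the transgene, was at -1.5 and -1.46, but no probe for the human gene was identified and its level was not analysed here.

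A few hair cell genes did differ. Ptprq, a phosphatase of stereocilia, had log2 ratios of 1.36 and 1.12 by its 2 probes, the brighter one 0.82 with normexp, and Gfi1, a transcription factor of hair cells and blood progenitors, was at -0.34 and 0.71 untreated and 0.59 and -1.37 after toxin. Lhx3 had a log2 ratio of 0.94 and Myo15 one of 0.57. Of the 27 hair cell genes measured 19 were higher, 2 of them past 2-fold, with a median of 0.13. Of all genes, 46.4% were higher and 0.384% past 2-fold higher. In 13 of the 26 hair cell genes measured on all 4 arrays, untreated OHC-TRECK and toxin-treated wild-type were above the other arrays, beside 12.6% of all genes. The toxin removes outer hair cells, so for their genes the low toxin-treated OHC-TRECK array in this order was set by the design. Otog, which encodes otogelin of the acellular membranes, and the potassium channel Kcna10 had log2 ratios of 0.90 and 0.74, the latter in an uneven band.

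Neural and glial genes were slightly lower in untreated OHC-TRECK cochleae. Of 25 Schwann cell and myelin genes 24 were lower, 0 past 2-fold, with a median log2 ratio of -0.21, and in 17 of the 25 (68.0%) untreated wild-type was the highest array, as in 30.4% of all genes. Mobp, Mag and Mbp, which encode myelin proteins, had -0.52, -0.48 and -0.43, and Olig1 and Gfap, of the central glia that reach into the auditory nerve, -0.46 and -0.44. Spiral ganglion genes had a median of -0.13 with 25 of 32 lower, and untreated wild-type was highest in 23 of 32 (71.9%).

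Single genes of other kinds stood among the largest differences. Mdfi, an inhibitor of myogenic factors, was at -0.30 and 2.30 untreated, 6.07-fold higher, and 0.64 and 1.62 after toxin, and was the brightest of the 15 largest higher genes. Rbp4, the retinol carrier, was at 0.45 and 1.76 untreated and 1.84 and 2.08 after toxin, so that untreated wild-type was the array that stood apart. Acsm3, a mitochondrial acyl-CoA synthetase, was at -2.55 and -5.65 untreated, 8.53-fold lower, with -5.12 in wild-type after toxin. Beside Ppbp, Treml1, Gp9 and Acsm3, the 15 largest lower genes were Gm5938, Olfr262, Olfr345, Pramel23, Lce1g, Syna, Gm6583, 4930512B01Rik, Gm5088, Ppef1 and Unc5cl, with log2 ratios between -2.70 and -2.35, log2 signals under -2.4 and no toxin-treated pair measured, and 7 of these 11 probes lay in uneven bands. Among the 15 largest higher ones, 1700109H08Rik, Cst13, 4933428G20Rik, Gm3696, the olfactory receptor Olfr711, Thegl and Ccdc172 had log2 ratios between 1.87 and 3.03 and were likewise not measured in the toxin-treated pair, with 3 of the 7 in uneven bands.

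Probes well above background on 1 of the untreated arrays gave lower bounds. Of 505 probes on the wild-type array only, 379 were at least 2-fold lower in OHC-TRECK, 203 of these in uneven bands. Of 1907 on the OHC-TRECK array only, 181 were at least 2-fold higher, 97 of these in uneven bands. The lowest log2 signal well above background was -6.39 on the OHC-TRECK array and -5.93 on the wild-type array. An equally bright signal could therefore give a larger bound for a lower than for a higher probe. These counts thus cannot show which direction was more frequent. Among the largest bounds were at least 14.6-fold lower for Adad2, 13.95-fold for Rps6kb1, 13.6-fold for Fam205a2, 11.95-fold for Mmrn1 and 11.8-fold for Efcab3, and at least 11.1-fold higher for Nlrp9c, 9.19-fold for Armc4, 8.25-fold for Agbl4 and 7.99-fold for Ccdc81. Among these, Mmrn1, Efcab3 and Nlrp9c lay in uneven bands.

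Sex-linked genes, the targets of the toxin and the chromosomes served as checks. Xist, Ddx3y and Eif2s3y had log2 ratios of 0.09, -0.05 and -0.06, while Kdm5d was well above background on neither array and Uty on the OHC-TRECK array only. The 13 genes of toxin entry and of its target, among them Eef2 and the diphthamide genes, had a median of -0.00 and lay between -0.17 and 0.11. The brightest Gapdh probe had -0.32 in an uneven band, and its other probes lay between -0.05 and 0.33. On chromosome 14, where the transgene lies, 5 and 15 of 976 measured probes were called higher and lower (2.05%), beside 1.48% of all probes. Lower probes there included those of Ear1, Ear2, Ctsg, Cebpe, Mcpt4 and Ltb4r1, granulocyte and mast cell genes named above. Any part of the insertion in this share was not tested. Chromosome 7 had the highest share, 2.37%, chromosome 14 came next, and chromosome 15 had the lowest among the autosomes, 0.715%.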

How the data were processed

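Cochlear RNA of 4 groups was hybridised, 1 Agilent mouse array a group, labelled with Cy3, all on 1 slide. The intensity the authors deposited is the background-subtracted linear signal of Agilent Feature Extraction 11.5.1.1, unscaled between arrays; its mean and background signals served 1 alternative. The deposited table of scaled values is that intensity divided by 1 constant an array, and its ratios have an unchanged direction. Probe positions are on mm9, per the file headers. Each array has 44397 features, 1377 of them controls. Control and outlier spots (149 to 228 an array) were left out, none was saturated, spots of a probe were averaged, and arrays were divided by their 75th percentile (2727.9 untreated wild-type, 3018.3 untreated OHC-TRECK). A flag held for a probe when it held for over 0.5 of its spots. Of the probes, 67.0% and 70.6% were well above background on the untreated arrays and 62.3% to 62.5% on the others. Names came from RefSeq by symbol for 29803 probes, accession for 1738 and synonym for 270, and 7618 kept the file's name.

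With 1 array a group no test was made. How precise the values are is limited by the few arrays. A call is a 2-fold difference. Lists use 1 probe a gene. A lower bound sets the bright signal against the lowest one well above background on the dim array, or the probe's own if higher. The genes to be named were the 15 largest differences each way, the 4 members of a list furthest from 0, the 5 largest bounds each way, hair cell and sex-linked checks, and every platelet, interferon and cilia gene past 2-fold; a few of these are not reported here. Other genes named, such as Rbp4, Pax5, Dcaf12l2 and Pde5a, list members with small differences, and promoters were chosen after values were seen. The members and lists were chosen with earlier results of these data known. Steps were tested on simulated data, and used Python 3.11.15, pandas 2.3.3, numpy 2.4.6 and limma 3.58.1 in R 4.3.3.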

Additional observations from a re-analysis of the deposited data

Results flagged for a closer look

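The following results differed between the untreated and the toxin-treated pair in the direction of the genotype difference; with 1 array a group the difference between the pairs was not tested. The median log2 ratio of motile cilia genes was 0.34 untreated and -0.38 after toxin. That of interferon-response genes was -0.30 and 0.24, that of complement genes -0.22 and 0.30, and that of Schwann cell and myelin genes -0.21 and 0.21. Of the probes measured on all 4 arrays, 17 were at least 2-fold higher in untreated OHC-TRECK cochleae and at least 2-fold lower after toxin, and 4 were lower and then higher.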

How the results depend on the processing

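Counts of called probes depended on the filter and the background, while the medians of the 8 lists recomputed (platelet, 3 neutrophil, eosinophil, interferon, cilia and hair cell) kept their sign under every alternative run. The 105 higher and 279 lower probes became 55 and 129 when all 4 arrays had to be well above background, 464 and 781 with the looser mark of a positive and significant signal on both arrays, 286 and 658 when 1 array sufficed and the dim side was raised to the floor, and 40 and 124 with normexp. At 1.5-fold they were 314 and 747, at 3-fold 35 and 91, and as genes 63 and 164. By alternatives chosen after the data were seen, they were 59 and 136 without the 5 uneven bands, and 55 higher and 160 lower without probes high on 1 array alone. Quantile or median scaling, the authors' scaled table and kept outlier spots left both counts within 1.5 times. The medians that moved by more than the spread of repeated spots (0.095 on the log2 scale) were, with all 4 arrays well above background, platelets at -0.30, later granules at -1.10 and eosinophils at -0.53; with the looser mark, platelets at -0.55 and mature neutrophils at -0.42; with normexp, primary granules at -0.93, later granules at -0.90, eosinophils at -0.57 and cilia at 0.23; and without the bands, later granules at -1.10. With normexp, Gp6, Mx1, Herc6, Sox6 and Ptprq were under 2-fold. Over the alternatives, Herc6 ranged from -1.32 to -0.12, Gp6 from -1.46 to -0.81, Sox6 from 0.92 to 1.65, Mx1 from -1.09 to -0.84, Ptprq from 0.82 to 1.47, Cfap52 from 2.46 to 3.53 and Ppbp from -4.20 to -3.24. No paired analysis was possible because each group has 1 array.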
